A study of Mus musculus with 6 samples.

Results

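Fibroblast growth factor (FGF) signalling was examined in the nasomaxillary complex of mouse embryos at E17.5 through 40 genes chosen by symbol, namely 18 extracellular FGF ligands, 4 intracellular FGFs, 5 receptors, 2 FGF-binding proteins, 2 FLRT membrane proteins, 6 feedback inhibitors and 3 ETS transcription factors that respond to FGF. All 40 were among the 24346 gene symbols in the files. The nasomaxillary complex is the bone, cartilage and soft tissue of the nose and upper jaw. The 3 control libraries carried Pth1r f/f, a floxed gene for the parathyroid hormone receptor, with no Cre, and the 3 mutant libraries carried Wnt1-Cre:Pth1r f/f. Tissue was untreated in both groups. The labels give no replicate numbers, so libraries are numbered within each group in the order of deposit, as names that pair nothing. Wnt1-Cre drives recombination in the neural crest lineage, so cells of the dissection from outside that lineage keep the floxed gene, and effects of the transgene and of the lost receptor cannot be told apart.

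FGF ligands bind receptor tyrosine kinases together with heparan sulfate and signal mainly through RAS and the ERK kinases. The pathway restrains itself, because ERK activity induces Sprouty proteins, the ERK phosphatase DUSP6 and ETS factors of the ETV group. In skeletal tissue FGF18 and FGF9 act on chondrocytes and osteoblasts, and FGFR3 is known as a brake on chondrocyte proliferation. FGF7 and FGF10 are made by mesenchyme and act on the epithelial form of FGFR2.

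Each library gave 1 FPKM value per gene, a fragment rate corrected for transcript length and for the number of mapped fragments, and this scale allows levels to be compared between genes. The mean of Pth1r itself was 68.0 ± 11.1 FPKM for controls and 75.1 ± 4.73 FPKM for mutants (SD, n = 3), and the floxed part of the gene is not given, so this does not check the genotype. Relative depth, read from the spacing of low values, ran from 0.671 in mutant replicate 3 to 1.11 in control replicate 2, with control replicate 1 set to 1. All control libraries and mutant replicate 1 expressed Xist and no Y-linked gene, and mutant replicates 2 and 3 expressed Y-linked genes, so sex was uneven between the groups. Markers of cartilage, osteoblasts, skeletal muscle, surface epithelium, neurons, olfactory epithelium, Schwann cells, endothelium and tooth were all detected. Whether each library is a separate embryo is not stated in the labels. Mutant replicate 1 differs in sex from mutant replicates 2 and 3, so the mutants are not all repeats of 1 embryo. For the other libraries this stays unknown. Every p-value therefore reflects the spread among these libraries, part of which may be technical.

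No FGF gene passed the test between mutant and control. Of the 40 members, 30 had a mean of at least 1 FPKM and were tested. Limma called 0 of the 30 at an adjusted p under 0.05, against 0.264% of the 14766 genes tested, and the smallest adjusted p was 0.0852, for Fgfrl1. At an unadjusted limma p under 0.05 there were 7 members, which is 23.3% of those tested beside 11.3% of all genes. Of these 3 were higher and 4 lower in mutant, where all genes had 5.35% higher and 5.96% lower. Control and mutant values did not overlap for 9 members, or 30%, beside 17% of all genes. Mutant values were above for 5 and below for 4, and over all genes these shares were 7.85% and 9.16%. The median log2 change of the members was 0.037, and it was -0.0020 over all genes. The median size of the change regardless of sign was 0.132 for members and 0.0723 for all genes. No tested member differed by 2-fold or more between group means, and 2, Fgf2 and Fgf20, differed by at least 1.5-fold. Without control replicate 3, 4 members had an unadjusted limma p under 0.05, Fgfrl1, Fgfr3, Fgfbp1 and Flrt2, beside 7.62% of all genes. With sex as a covariate the change rests on mutant replicate 1 against the controls, because the other mutants were the only male libraries. It was -0.55 for Fgfrl1, -0.47 for Fgfr3 and 0.485 for Fgfbp1.

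**Figure D1:**
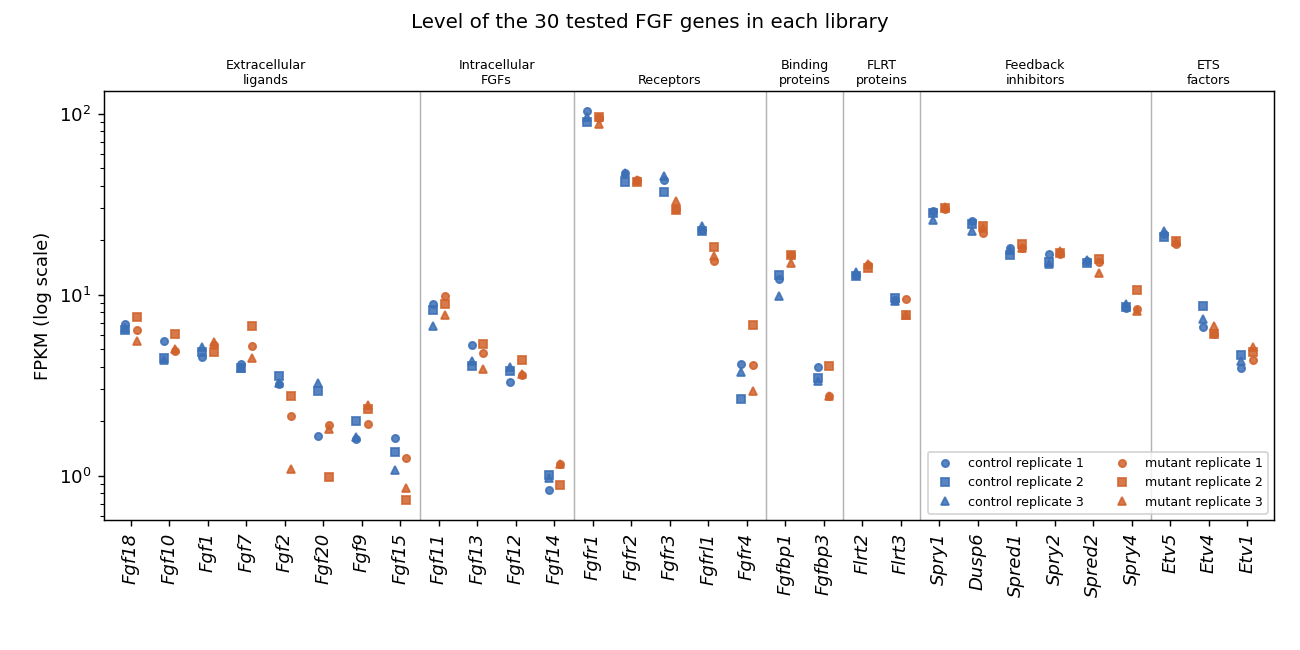
FPKM on a log axis (vertical) of the 30 tested FGF genes (horizontal, grouped by role and ordered by mean) in each of the 3 control (blue) and 3 mutant (orange) libraries, with 1 marker shape per replicate number. Fgfr1, at 87.4 to 104 FPKM, stands highest, and the top value of any extracellular ligand is 7.57 FPKM, for Fgf18.

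The receptors Fgfr1, Fgfr2 and Fgfr3 had the highest means of the members, and 2 of the 5 receptors, Fgfrl1 and Fgfr3, were lower in every mutant library than in every control, as 9.16% of all genes were. Fgfrl1 encodes a receptor that binds FGFs but lacks the tyrosine kinase domain. Its level was 22.9, 22.5 and 23.8 FPKM in the 3 controls (replicates 1 to 3) and 15.4, 18.5 and 16.3 FPKM in the 3 mutants. The 3 controls were close together, and the highest mutant value lay below the lowest of them. The means were 23.1 ± 0.663 and 16.7 ± 1.57 FPKM (SD, n = 3), so controls were on average 1.38 times as high. The log2 change was -0.45 ± 0.071 (SE, 95% interval -0.61 to -0.28), with an unadjusted limma p of 0.000375 and an adjusted p of 0.0852. The call depended on the libraries: the adjusted limma p was 0.0388 without mutant replicate 2 and 0.0320 with library weights, and it ran up to 0.335 over the 14 alternatives.

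Fgfr3 is the receptor kinase best known in growth cartilage. It had 42.8, 36.8 and 45.1 FPKM in the 3 controls and 29.6, 29.3 and 33.1 FPKM in the 3 mutants. The groups did not overlap, and mutant replicate 3 was the highest of the mutants. The means were 41.6 ± 4.31 and 30.7 ± 2.13 FPKM (SD, n = 3), a log2 change of -0.42 ± 0.086 (SE, 95% interval -0.63 to -0.22) with an adjusted limma p of 0.162. Fgfr3 passed the threshold in 0 of 14 alternatives, and its change stayed between -0.51 and -0.36.

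The other receptor kinases overlapped between the groups. Fgfr1, the main receptor of mesenchyme, measured 104, 89.7 and 96.0 FPKM in control and 94.4, 95.4 and 87.4 FPKM in mutant, and Fgfr2, with epithelial and mesenchymal splice forms that these gene values do not separate, measured 47.0, 42.1 and 46.9 FPKM and 43.2, 41.9 and 42.8 FPKM. Their log2 changes of -0.06 and -0.08 had 95% intervals of -0.22 to 0.09 and -0.22 to 0.05. Fgfr4, a receptor found in muscle progenitors, was far less abundant, at 4.16, 2.65 and 3.75 FPKM in control and 4.09, 6.83 and 2.96 FPKM in mutant. Mutant replicate 2 alone stood above the rest, and the interval of the change, -0.32 to 0.86, was the widest of the receptors. The summed FPKM of the 4 receptor kinases was 187 ± 14.1 in control and 170.3 ± 3.68 in mutant (SD, n = 3). Fgfr3 made up 21.6%, 21.5% and 23.5% of that sum in control and 17.3%, 16.9% and 19.9% in mutant replicates 1 to 3, shares that did not overlap. An exact two-sided permutation test gave p = 0.1 for this share, the smallest that 3 against 3 allows. Fgfr3 itself already separated the groups, so that p is no independent evidence. The same permutation test gave p = 0.2, 0.3 and 0.3 for the shares of Fgfr1, Fgfr2 and Fgfr4, and p = 0.3 for the sum.

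The promoters of the 3 members of smallest p, Fgfrl1, Fgfr3 and the binding protein gene Fgfbp1, are printed to show how their start regions differ. RefSeq windows of 300 bases on GRCm38.p6, the same coordinates as mm10, run from 250 bases before to 50 after a transcript start, and 31 of the 40 members had at least 1. All 3 genes lie on chromosome 5. By GENCODE Fgfrl1 spans 108692382 to 108706924 and Fgfr3 33721674 to 33737068, both on the plus strand, and Fgfbp1 spans 43978858 to 43981779 on the minus strand. Capitals mark matches on either strand to the ETS motif CCGGAAGT, the GC box GGGCGG, the TATA motif TATAAA or the SOX motifs ACAAAG and ACAATG, and neighbouring GC boxes can overlap. The windows are chr5:108693979-108694278 (plus strand), chr5:33721474-33721773 (plus strand, the first of 2 Fgfr3 windows) and chr5:43981750-43982049 (minus strand). The Fgfrl1 window lies inside the GENCODE span of the gene, so it covers a RefSeq transcript start downstream of the start of that span.
Fgfrl1: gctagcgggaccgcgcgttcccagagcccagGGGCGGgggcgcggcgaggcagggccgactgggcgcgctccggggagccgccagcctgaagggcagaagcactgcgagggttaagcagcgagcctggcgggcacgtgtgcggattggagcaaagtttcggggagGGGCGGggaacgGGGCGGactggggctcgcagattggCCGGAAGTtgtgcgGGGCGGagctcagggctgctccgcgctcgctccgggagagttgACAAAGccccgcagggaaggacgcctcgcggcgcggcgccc
Fgfr3: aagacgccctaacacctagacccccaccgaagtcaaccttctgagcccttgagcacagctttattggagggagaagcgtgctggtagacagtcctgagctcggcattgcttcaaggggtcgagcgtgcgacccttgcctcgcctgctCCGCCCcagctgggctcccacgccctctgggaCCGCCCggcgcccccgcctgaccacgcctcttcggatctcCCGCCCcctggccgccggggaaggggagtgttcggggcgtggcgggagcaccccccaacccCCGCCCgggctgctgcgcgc
Fgfbp1: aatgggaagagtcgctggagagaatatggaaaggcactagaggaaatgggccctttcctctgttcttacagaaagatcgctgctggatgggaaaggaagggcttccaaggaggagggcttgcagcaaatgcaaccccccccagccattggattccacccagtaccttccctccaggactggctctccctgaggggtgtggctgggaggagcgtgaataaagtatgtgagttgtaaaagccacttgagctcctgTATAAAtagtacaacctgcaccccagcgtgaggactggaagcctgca

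The Fgfrl1 and Fgfr3 windows each held 4 GC boxes and had 73.7% and 69.7% G and C. The other Fgfr3 window held 2 GC boxes. The Fgfbp1 window held no GC box, a TATA motif and 53.3% G and C. The median share of G and C was 52.7% over all windows and 60.3% over member windows. Over all 32851 windows, 35.7% held a GC box and 13.6% the TATA motif, and of the 40 member windows 22 held a GC box and 6 the TATA motif. The ETS motif stood in the Fgfrl1 window, the only 1 of 40 member windows with it, and in 3.89% of all windows. A SOX motif match, ACAAAG, was also in the Fgfrl1 window, and this hexamer was in 18.7% of all windows. These matches describe letters in the windows and not bound sites.

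Cartilage markers were lower in the mutants beside these 2 receptors. All 8 cartilage markers (Col2a1, Acan, Matn1, Col9a1, Col9a3, Hapln1, Ucma and 3110079O15Rik, an older symbol of Snorc) were lower in every mutant library than in every control, and 6 of them passed the test. Their summed FPKM was 1358, 1190 and 1452 in control and 330.2, 304.7 and 549.3 in mutant replicates 1 to 3. The 6 libraries stood in the same order by Fgfr3 as by this sum, from mutant replicate 2 at the bottom to control replicate 3 at the top, a match seen after the values were known. Fgfrl1 followed the sum between groups, but within mutants its highest value, in mutant replicate 2, came with the lowest sum. The part of cartilage markers in the receptor values was not tested. In a bulk sample fewer cells of a type and less RNA per cell cannot be told apart.

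**Figure D2:**
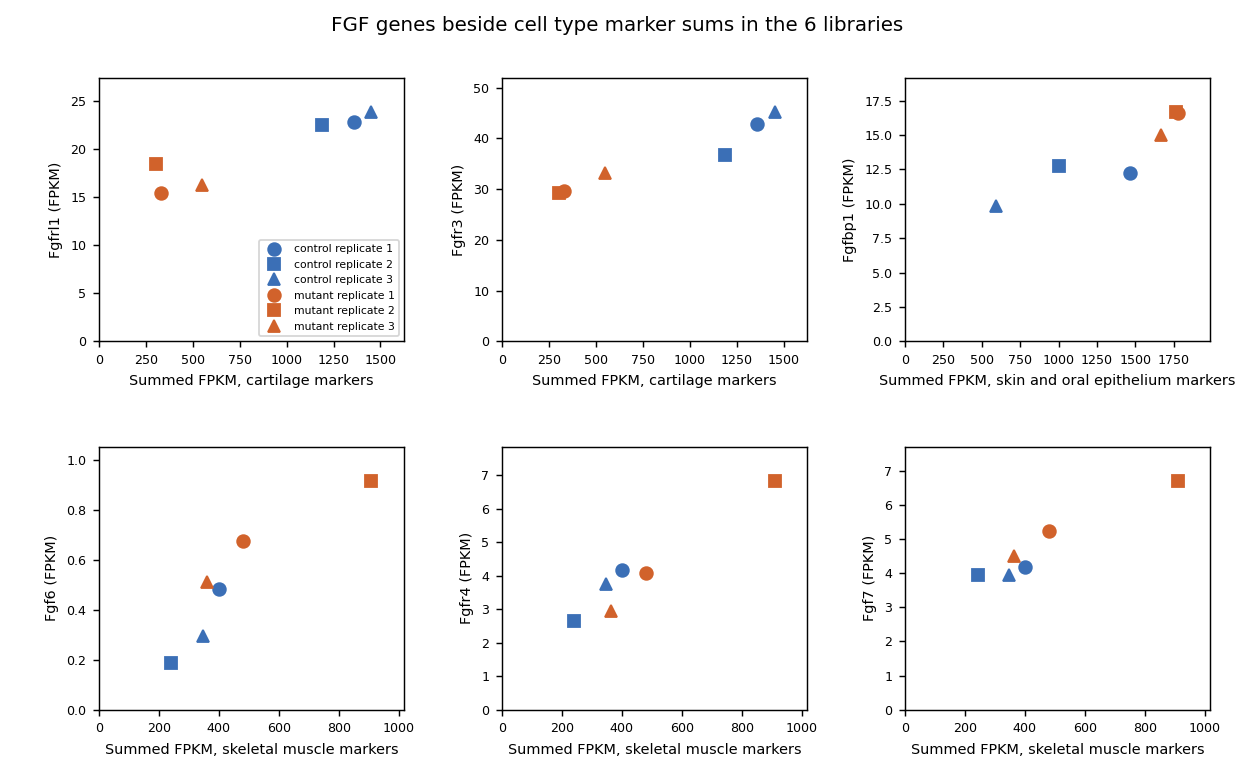
FPKM of 6 FGF genes (vertical axes from 0) against the summed FPKM of cartilage, skin and oral epithelium or skeletal muscle markers (horizontal axes from 0) in the 6 libraries, blue for control and orange for mutant. Fgfr3 and the cartilage sum order the libraries alike, Fgfbp1 is highest where the epithelial sum is 1670 or more, and mutant replicate 2 is the top library in each muscle panel.

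Extracellular ligands were low, and none of those tested passed the threshold. Their 18 values summed to 33.1 ± 0.520 FPKM in control and 32.9 ± 2.66 FPKM in mutant (SD, n = 3). Of the 18, 8 were tested, 4 with positive and 4 with negative changes. Groups did not overlap for 2 of the 8, Fgf2 and Fgf7, or 25% beside 17% of all genes. The ligand of highest mean was Fgf18, a growth factor of cartilage and bone, with 6.89, 6.40 and 6.55 FPKM in control and 6.43, 7.57 and 5.52 FPKM in mutant. Its log2 change of -0.03 had a 95% interval of -0.27 to 0.22.

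Fgf2, a ligand without a classical secretion signal, was lower in the mutants. It had 3.21, 3.55 and 3.27 FPKM in the 3 controls and 2.14, 2.75 and 1.09 FPKM in the 3 mutants. The groups did not overlap, and the mutants were widely spread, with the lowest value in mutant replicate 3, the shallowest library. The means were 3.34 ± 0.183 and 1.99 ± 0.840 FPKM (SD, n = 3), and the log2 change was -0.58 ± 0.204 (SE, 95% interval -1.06 to -0.10). It did not pass, with a limma adjusted p of 0.365, and without mutant replicate 3 the log2 change was -0.34. Fgf2 (chromosome 3, 37348346 to 37410108, plus strand) shares 640 of its 6525 exonic bases with Nudt6 on the opposite strand. The strand setting of the counting is not given, so reads there cannot be assigned to one gene. Nudt6 measured 5.02, 4.96 and 2.92 FPKM in control and 5.05, 5.36 and 4.09 FPKM in mutant, overlapping between the groups. Fgf1, the closest relative of Fgf2, had 4.55, 4.86 and 5.12 FPKM in control and 5.31, 4.85 and 5.45 FPKM in mutant, with a 95% interval of -0.09 to 0.27 for its log2 change.

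Fgf7, a mesenchymal ligand for epithelium (chromosome 2, 126034658 to 126091185, plus strand), was higher in the mutants. It had 4.16, 3.93 and 3.95 FPKM in the 3 controls and 5.22, 6.70 and 4.50 FPKM in the 3 mutants. Controls lay within a narrow band, and all mutants stood above it. The log2 change was 0.35 ± 0.124 (SE, 95% interval 0.06 to 0.65), with an adjusted limma p of 0.362. Fgf10, its close relative, overlapped between the groups, at 5.55, 4.48 and 4.37 FPKM in control and 4.86, 6.04 and 5.03 FPKM in mutant. For both genes the top library was mutant replicate 2.

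The remaining tested ligands overlapped between the groups. Fgf9, which signals between epithelium and mesenchyme, measured 1.61, 1.997 and 1.64 FPKM in control and 1.94, 2.35 and 2.45 FPKM in mutant (log2 change 0.24, 95% interval -0.02 to 0.51). Fgf20, of the same subfamily, leaned the other way, with 1.67, 2.96 and 3.26 FPKM in control and 1.90, 0.985 and 1.82 FPKM in mutant (log2 change -0.49, 95% interval -1.01 to 0.03). Adding sex to the fit, which sets mutant replicate 1 alone against the controls, gave Fgf20 a log2 change of -0.29. Leaving out mutant replicate 2 gave -0.31. Fgf20 shares 202 of its 1678 exonic bases with Micu3 on the opposite strand, a gene at 5.44 to 7.28 FPKM. Fgf15, an endocrine ligand of the intestine in the adult, measured 1.63, 1.35 and 1.08 FPKM in control and 1.249, 0.731 and 0.852 FPKM in mutant. Its adjusted limma p was 0.548, and its position near the filter of 1 FPKM makes its values imprecise.

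The other 10 ligands had means under 1 FPKM and were not tested. Their library values ran from 0 to 1.24 FPKM. Control and mutant overlapped for 6 of them. Mutant values were above all controls for 3, namely Fgf4, Fgf5 and Fgf6, and below all controls for 1, Fgf23, the phosphate-regulating hormone of bone. The share of all genes under 1 FPKM whose groups did not overlap was not computed, so these counts have no background to be read against. Fgf4, Fgf5 and Fgf6 form 1 subfamily, and Fgf6 is known from developing muscle. Fgf6 measured 0.482, 0.186 and 0.294 FPKM in control and 0.674, 0.916 and 0.513 FPKM in mutant. All values of Fgf4, Fgf5, Fgf8 and Fgf23 stayed under 0.5 FPKM. Fgf4 did not exceed 0.0249 FPKM in control and lay between 0.0827 and 0.146 FPKM in mutant, and Fgf5 reached 0.128 FPKM in control and lay between 0.143 and 0.373 FPKM in mutant. Such levels correspond to few fragments, and they entered the fit only in the alternative with no filter on low values.

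The low ligands with a library at 0.5 FPKM or more, other than Fgf6, all overlapped. Fgf21, a metabolic hormone and the untested member closest to the filter, measured 1.24, 0.604 and 0.918 FPKM in control and 0.656, 0.530 and 0.998 FPKM in mutant. Fgf22 had 0.511, 0.921 and 0.818 FPKM in control and 0.501, 0.849 and 0 FPKM in mutant, the 0 being in the shallowest library, and it shares 82 exonic bases with Rnf126 on the opposite strand. Fgf17 ran from 0.254 to 0.699 FPKM and Fgf16 from 0.370 to 0.695 FPKM over the 6 libraries. Fgf3 ran from 0.0793 to 0.533 FPKM. Fgf3, Fgf4 and Fgf15 lie within 100 kb of each other on chromosome 7 and Fgf6 and Fgf23 lie 44.7 kb apart on chromosome 6. Of these neighbours Fgf6 was higher and Fgf23 lower in mutant. Fgf4 was higher, while Fgf3 and Fgf15 overlapped, both with a mutant mean below that of control. Only Fgf15 among them was tested.

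Skeletal muscle markers differed between the libraries beside Fgf6, Fgfr4 and Fgf7. The summed FPKM of 8 muscle markers was 400.8, 242.2 and 346 in control and 479.7, 909.2 and 362.3 in mutant replicates 1 to 3. Of the 8, 5 had mutant values above all controls and 0 passed the test (smallest adjusted limma p 0.247). Mutant replicate 2 was the top library for the sum, for Fgf6, for Fgfr4 and for Fgf7, and control replicate 2 the bottom one. This match was seen after the values were known. Mutant replicate 2 was also the top library for other members, among them Fgf5, Fgf10, Fgf13, Fgf18, Fgfbp1, Fgfbp3 and Spry4. The part of muscle markers in the values of Fgf6, Fgfr4 and Fgf7 was not tested. Without mutant replicate 2 the log2 change of Fgf7 was 0.22, and the gene was not called in any of its 13 alternatives.

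The intracellular FGFs, which are not secreted and bind sodium channels in neurons, overlapped between the groups. Fgf11 was the highest, at 8.93, 8.26 and 6.72 FPKM in control and 9.86, 8.88 and 7.72 FPKM in mutant, and Fgf13 measured 5.29, 4.07 and 4.31 FPKM and 4.76, 5.34 and 3.88 FPKM. Fgf12 ran from 3.31 to 4.38 FPKM and Fgf14, just inside the filter, from 0.833 to 1.16 FPKM. The 95% interval of their log2 changes reached from -0.27 at the lowest, for Fgf13, to 0.41 at the highest, for Fgf11. Neuron markers summed to 295 to 386.3 FPKM in control and 263.2 to 349.4 FPKM in mutant.

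Fgfbp1 encodes a secreted protein that frees FGFs from heparan sulfate and is made by squamous epithelium, and it was higher in every mutant library. It had 12.3, 12.8 and 9.88 FPKM in the 3 controls and 16.6, 16.7 and 14.99 FPKM in the 3 mutants. The lowest mutant value was above the highest control value. The means were 11.6 ± 1.55 and 16.1 ± 0.945 FPKM (SD, n = 3), a mutant mean 1.38 times that of control. The log2 change was 0.44 ± 0.098 (SE, 95% interval 0.21 to 0.67), with an unadjusted limma p of 0.0026 and an adjusted p of 0.191.

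Values of 7 skin and oral epithelium markers were set beside Fgfbp1. None of the 7 passed the test (smallest adjusted limma p 0.136), and 6 had an unadjusted p under 0.05. The mutant values of all 7 lay above all control values, and their summed FPKM was 1466, 1000 and 594.7 in control and 1775, 1766 and 1670 in mutant replicates 1 to 3. Control replicate 3 was lowest both for the sum and for Fgfbp1, while control replicates 1 and 2 stood in opposite order. The part of epithelium in the Fgfbp1 values was not tested. Without control replicate 3 the log2 change of Fgfbp1 was 0.34. Fgfbp3, a second binding protein, overlapped, with 4.002, 3.48 and 3.34 FPKM in control and 2.76, 4.03 and 2.78 FPKM in mutant.

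The FLRT proteins are membrane proteins, and FLRT3 is known to bind FGF receptors. Flrt2 (chromosome 12, 95692226 to 95785215, plus strand) measured 12.9, 12.7 and 13.3 FPKM in control and 14.6, 14.0 and 14.8 FPKM in mutant. The groups did not overlap, but the difference was small, 0.15 ± 0.052 on the log2 scale (SE), with an adjusted limma p of 0.372. Flrt3 had 9.31, 9.58 and 9.18 FPKM in control and 9.504, 7.76 and 7.71 FPKM in mutant. Mutant replicate 1, the Xist-expressing mutant, lay with the controls and the other 2 mutants below them. With sex as a covariate, a fit that sets mutant replicate 1 alone against the controls, the log2 change of Flrt3 went from -0.16 to 0.020.

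**Figure D3:**
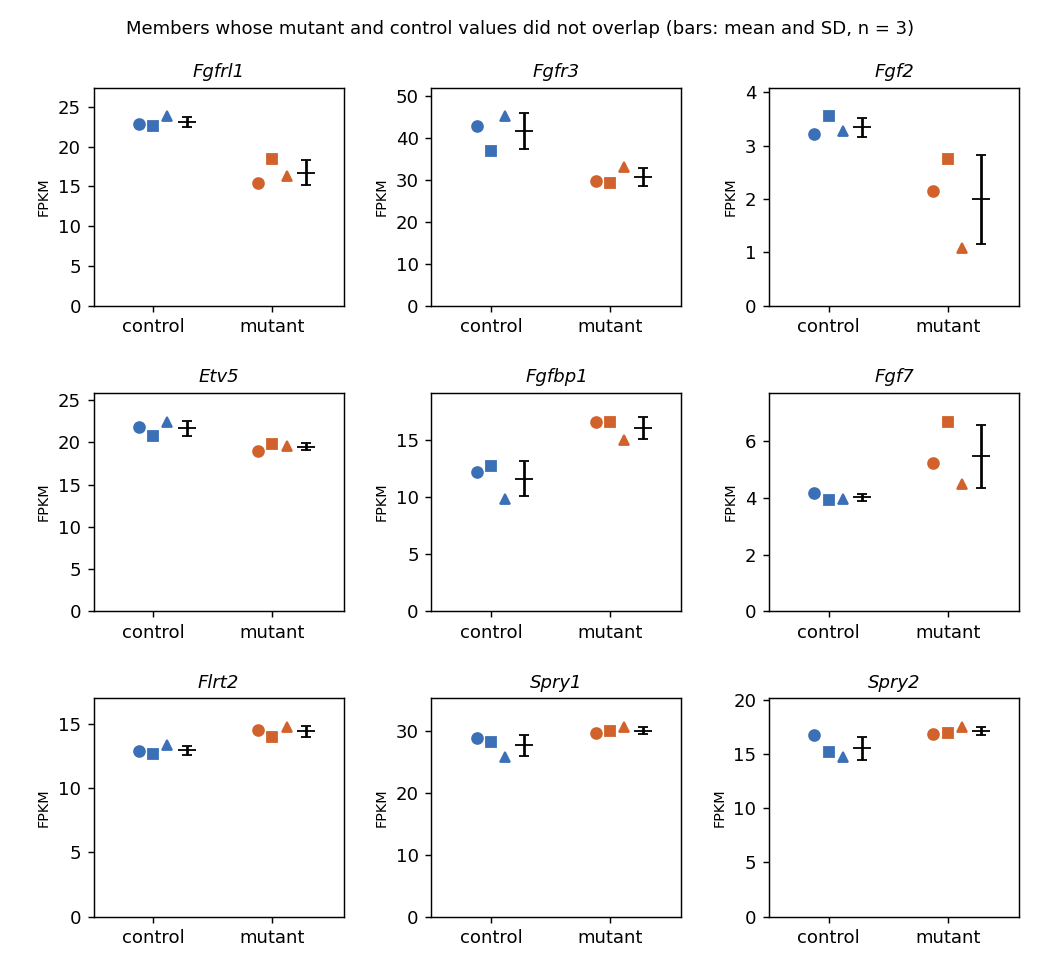
FPKM (vertical axes from 0) in each control (blue) and mutant (orange) library of the 9 tested members whose groups did not overlap, with bars for the mean and SD of 3 libraries. Fgfrl1, Fgfr3, Fgf2 and Etv5 are lower in mutant, and Fgfbp1, Fgf7, Flrt2, Spry1 and Spry2 higher, with the smallest gaps in Spry1 and Spry2.

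Of the 6 feedback inhibitors 0 had an unadjusted p under 0.05, beside 11.3% of all genes, and 2 had groups that did not overlap, beside 17% of all genes. Their summed FPKM was 108.8 ± 4.20 in control and 112.6 ± 3.46 in mutant (SD, n = 3), with an exact two-sided permutation p of 0.4. Spry1, a Sprouty inhibitor of receptor signalling, measured 29.0, 28.3 and 25.8 FPKM in control and 29.6, 29.96 and 30.7 FPKM in mutant. Spry2 measured 16.7, 15.2 and 14.7 FPKM in control and 16.9, 16.96 and 17.51 FPKM in mutant. In both genes all mutants stood above all controls by a narrow margin. Their log2 changes of 0.12 and 0.13 had adjusted limma p of 0.485 and 0.472, and without control replicate 3 that of Spry1 was 0.070.

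Dusp6, the phosphatase that removes the activating phosphates of ERK, measured 25.7, 24.4 and 22.4 FPKM in control and 21.9, 24.1 and 23.3 FPKM in mutant. Its log2 change of -0.06 had a 95% interval of -0.21 to 0.09. Spred1 and Spred2, which inhibit the step from RAS to RAF, ranged from 16.6 to 19.2 FPKM and from 13.2 to 15.8 FPKM over the 6 libraries. Spry4 ran from 8.16 to 10.6 FPKM, with mutant replicate 2 above the rest. The 4 genes overlapped between the groups, and the widest interval among the feedback inhibitors, for Spry4, was -0.18 to 0.28.

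The ETS factors, transcription factors induced by ERK activity, were split. Etv5 (chromosome 16, 22381309 to 22439719, minus strand) measured 21.8, 20.8 and 22.5 FPKM in control and 19.0, 19.9 and 19.5 FPKM in mutant. The groups did not overlap, and the log2 change was -0.15 ± 0.051 (SE, 95% interval -0.27 to -0.03) with an adjusted limma p of 0.362. Etv4 measured 6.61, 8.67 and 7.40 FPKM in control and 6.11, 6.07 and 6.69 FPKM in mutant, where control replicate 1 lay just under mutant replicate 3. Etv1 leaned higher in mutant, with 3.92, 4.63 and 4.30 FPKM in control and 4.37, 4.81 and 5.14 FPKM in mutant. The summed FPKM of the 3 was 33.5 ± 1.05 in control and 30.5 ± 0.940 in mutant (SD, n = 3), without overlap and with an exact two-sided permutation p of 0.1. That p is the smallest possible for 3 against 3. Etv5, the largest part of the sum, already separated the groups, so the p is no independent evidence.

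**Figure D4:**
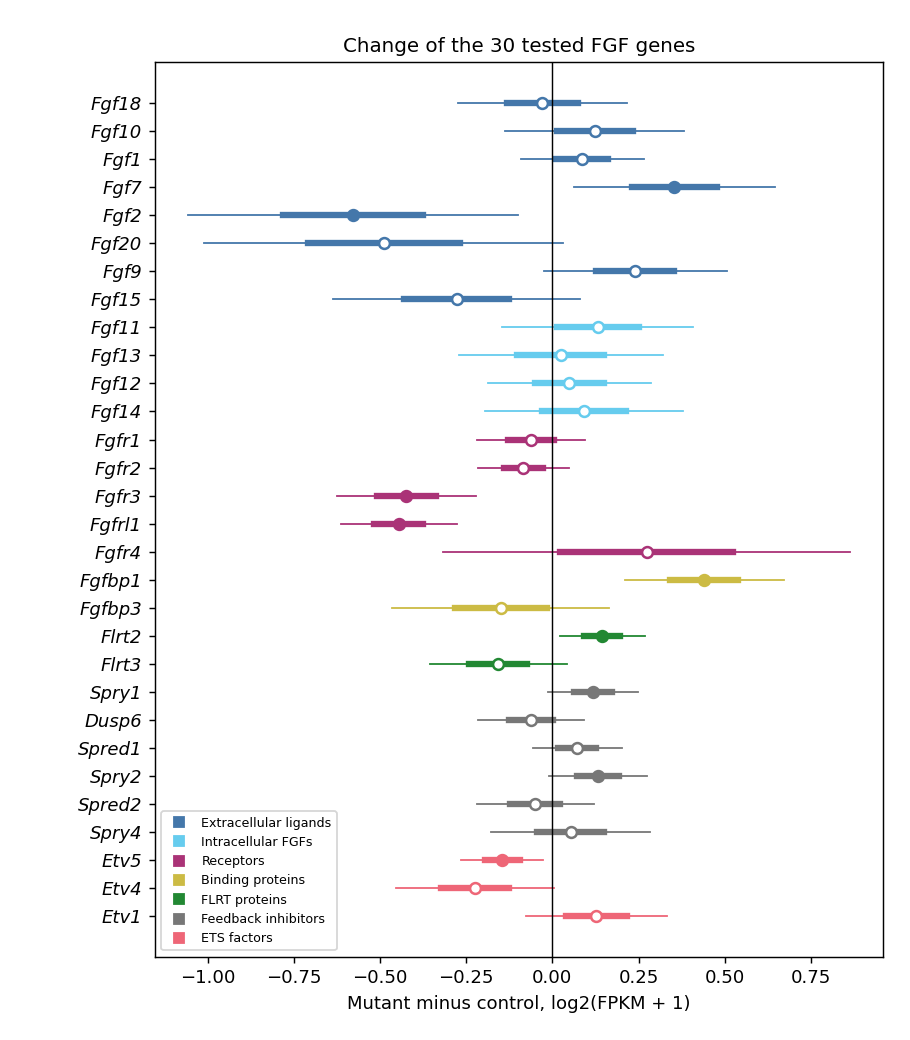
Mutant minus control difference in log2(FPKM + 1) (horizontal) for the 30 tested FGF genes (vertical, coloured by role). Thick bars are ± 1 SE, thin lines the 95% limma interval, and filled points mark the 9 genes whose groups did not overlap. Fgfrl1, Fgfr3 and Fgfbp1 have intervals farthest from 0 in proportion to their error, and the intervals of all 6 feedback inhibitors include 0.

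Other genes of the pathway were taken from a list of 54, made of co-receptors and heparan sulfate proteoglycans, adaptors and RAS proteins, RAF, MEK and ERK kinases, further feedback inhibitors and ERK target genes. Of them 48 were tested and limma called 0, beside 0.264% of all genes, with a smallest adjusted p of 0.238. At an unadjusted p under 0.05 there were 3 higher and 3 lower, or 12.5% beside 11.3% of all genes. Groups did not overlap for 12, or 25.0% beside 17% of all genes, 8 with mutant above and 4 with mutant below. Over all genes these shares were 7.85% above and 9.16% below. The median log2 change of the list was 0.024.

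The 6 pathway genes of smallest p were Gab1, Dusp4, Araf, Sdc2, Ccnd1 and Sdc4. Gab1, an adaptor recruited to the FGF receptor complex, measured 18.2, 18.3 and 18.04 FPKM in control and 21.7, 21.4 and 20.1 FPKM in mutant, with a log2 change of 0.20 and an adjusted limma p of 0.238. All mutants stood above the tight control values. Dusp4, a nuclear phosphatase of ERK, measured 10.9, 11.997 and 12.4 FPKM in control and 8.84, 7.33 and 9.86 FPKM in mutant, with a log2 change of -0.41 and an adjusted limma p of 0.247. Its groups did not overlap either. Araf, a RAF kinase, had a log2 change of 0.15, Ccnd1, a cyclin of the G1 phase, one of -0.13, and the heparan sulfate proteoglycans Sdc2 and Sdc4 changes of 0.17 and -0.17, with adjusted limma p from 0.324 to 0.416. Kl and Klb, the Klotho co-receptors that endocrine FGFs require, did not exceed 0.158 FPKM in any library.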

How the data were processed

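The data were 6 messenger RNA libraries, and the genotype label split them into 3 control and 3 mutant. TRIzol extraction and a stranded library kit are recorded per the labels' protocols. The submitters' processing notes name build mm10 and the tools TopHat2 2.1.1 and Cuffdiff 2.2.1, with Bowtie2 2.2.8 and SAMtools 0.1.18. The sources used here give neither the annotation and filters nor the strand setting of the counting. The authors deposited FPKM values, 1 per gene symbol and library, per the file headers, so fragment counts and absolute depth are unknown. Low values come from few fragments and are imprecise, most of all in mutant replicate 3.

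No scaling was added, and genes averaging 1 FPKM or more were analysed as log2(FPKM + 1). Groups were compared with limma 3.58.1 in R 4.3.3, using a two-sided moderated test with a trend of variance on mean level, no covariate and 4 residual degrees of freedom, and p-values were adjusted by Benjamini-Hochberg over all 14766 tested genes. Fold changes on this scale understate those of low genes. The fit was tested on simulated data. Sums over genes were compared by exact permutation over libraries. Named members are those with an unadjusted p under 0.05 or separated groups, the 2 of highest mean in each role, untested members with a library at 0.5 FPKM or more, and the 6 pathway genes of smallest p, and others are given by range. The members and lists were chosen with earlier results of these data known. Positions are from GENCODE on GRCm38, promoters from RefSeq on GRCm38.p6. Alternatives were another pseudocount, filter, scaling, variance model, library weights, sex as a covariate and leaving out each library.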

Additional observations from a re-analysis of the deposited data

How the results depend on the processing

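The count of called FGF members was 0 under all but 2 of 14 alternatives. It was 1 with library weights, where Fgfrl1 passed and 71 of all 14766 genes were called, beside 39 in the main fit. It ran from 0 to 1 over the fits that left out 1 library, which called 17 to 44 of all genes. The 1 was Fgfrl1 without mutant replicate 2, a fit that called 33 of 14757 genes. Pathway genes stayed at 0 called in all 14. The 7 members at an unadjusted limma p under 0.05 ran from 4 to 8 when 1 library was left out, beside 7.62% to 12% of all genes. With sex as a covariate the fit sets mutant replicate 1 alone against the controls, because the other mutants were the only male libraries. Its count at that level is therefore not given. Fgfrl1, Fgfr3 and Fgfbp1 had an unadjusted limma p under 0.05 in each fit that left out 1 library. Changes of sign were seen in 3 named members, Fgf18, Fgf13 and Flrt3, whose log2 changes in the main fit were -0.03, 0.02 and -0.16. Leaving out 1 library gave Fgf18 values from -0.13 (without mutant replicate 2) to 0.068 (without mutant replicate 3). It gave Fgf13 values from -0.062 to 0.13, negative without control replicate 2 (-0.039), control replicate 3 (-0.0049) and mutant replicate 2. Flrt3 was 0.020 with sex as a covariate, the fit that rests on mutant replicate 1 against the controls. The cause was not tested. No paired analysis was possible because the labels give no replicate numbers, and the numbers used here follow the order of deposit. Depth limits the 10 members under 1 FPKM, which were tested only without a filter. In that fit 0 of all 40 members were called, beside 18 of all genes. An unadjusted limma p under 0.05 was seen for 10 of the 40, beside 9.88% of the 20886 genes in it.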

Other observations

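Tooth markers, a tissue in which several FGF ligands are known to act, were uneven between libraries in a way the genotype label does not follow. Amelx, Ambn, Enam and Dspp summed to 119.6 and 133.4 FPKM in control replicates 1 and 2, to 3.81 FPKM in control replicate 3 and to 18.3, 14.4 and 11.98 FPKM in mutant replicates 1 to 3. Fgf20 measured 1.67 and 2.96 FPKM in the 2 libraries rich in these markers and 3.26 FPKM in control replicate 3. Fgf3 measured 0.501 and 0.452 FPKM in the 2 rich libraries and reached 0.533 FPKM in mutant replicate 3. Fgf4 stayed at or under 0.0249 FPKM in all controls, rich in these markers or not.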
